A study of Mus musculus with 8 samples.

Results

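The liver response to 1 day of diet choice was read from 4 arrays, chosen as every array of the series whose sample title names liver, out of 8 arrays in all. The study gave male mice of 2 strains either chow or a choice of 2 foods, and each array measured RNA pooled from 6 mice. The chow groups were C57BL/6J mice (B6) and B6.CAST-17 mice (the congenic strain) fed LabDiet chow. The 2-choice groups were mice of the same strains offered a carbohydrate/protein food and a fat/protein food side by side for 24 h, each with 78% of its main macronutrient and 22% protein. B6.CAST-17 mice are homozygous for a stretch of chromosome 17 from the CAST strain on the B6 background. Tissue of the 2-choice mice was collected on day 2 of the choice, 4 h ahead of the dark phase. They came from 20 to 25 mice per strain that had first been offered the foods for 10 days, were kept because their nutrient intake was the most divergent, and had returned to chow for 6 weeks. Whether the chow mice were picked in the same way, when in the day their livers were taken, how much of each food the mice ate and how old they were is not stated in any source at hand. Each combination of strain and diet is therefore 1 pool, and the 2 strains stand in for replicates of a diet.

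The liver takes up sugars, amino acids and fats from the gut. When carbohydrate is plentiful, the transcription factors SREBP1c and ChREBP turn on the enzymes that make fatty acids from it, while glucose-6-phosphatase and PEPCK serve glucose release between meals. Hepatocytes also break down surplus amino acids, make bile acids and detoxify drugs and plant compounds through cytochromes P450 and conjugating enzymes, many of them under the nuclear receptors CAR and PXR. Kupffer cells, the resident macrophages, and the fenestrated endothelium line the sinusoids through which the blood passes.

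Intensities were taken to log2 and quantile normalized over the 4 liver arrays, and every level below is a log2 intensity given in the order B6, then congenic. A difference is 2-choice minus chow, averaged over both strains. The tissue labels held: the 9 hepatocyte markers with a probe read between 18.94 (Apoh, B6 2-choice) and 21.56 (transthyretin, Ttr, congenic chow), while the highest of the 10 neuron markers was Syt1 at 12.58. The MHC class II gene H2-Ea on chromosome 17, silent in B6 mice because of a promoter deletion, read 8.52 and 12.62 on chow and 8.39 and 11.35 on 2-choice, low in both libraries titled B6. Nothing in the data checks the diet titles, and the free-text notes of both chow livers name the 2-choice diet. The free-text notes of all 4 liver samples also name hypothalamus, and that of the B6 2-choice liver names congenic mice. Titles and characteristics were used instead.

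Of 19807 probes tested with limma, 340 were called higher (1.72% of those tested) and 299 lower (1.51%) on 2-choice at an adjusted p at or under 0.05. Named probes gave 312 genes, 130 of them higher and 182 lower. The direction was the same in both strains for all 639 calls, against 11915 of the 19807 probes tested. The 2-choice pair lay wholly above or below the chow pair for 606 calls, against 19.6% of all probes above and 21.6% below. Agreement between strains is what the fit takes as its error, so these shares are no separate support. Of the calls, 430 were also at least 1.5-fold apart in each strain. Without using the fitted spread, 1173 probes were at least 1.5-fold higher in each strain (5.92%) and 1137 at least 1.5-fold lower (5.74%), while 1278 were that far apart in opposite directions. Over all probes tested the differences in the 2 strains were only weakly correlated (r = 0.15). Calls came mostly from bright probes: 557 lay among the 6602 brightest probes tested, where r was 0.54, 72 among the 6602 of middle level, where r was 0.17, and 10 among the 6603 dimmest, where r was 0.07. These correlations describe probes of the same 4 arrays, which are not independent replicates. Shares over all probes, given beside list counts below, are lower than the share called among the brightest probes.

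The fit left 1 residual degree of freedom, and its p-values measure only how alike these pools of 2 strains were. With limma's spread not tied to the mean level there was no call (0 calls, lowest adjusted p = 0.59, 1615 probes at an unadjusted p under 0.05), and taking the spread from all 8 arrays (0 calls, 1731 probes at an unadjusted p under 0.05) or leaving out the strain term (0 calls, 1901 such probes) also gave none. With any 1 of the 4 arrays left out, and so no strain term, the count was 1 to 4. The deposited values of the 2 strains share 1 distribution within each diet, so an effect of diet and one of scaling cannot be told apart. A gene is said to rise or fall below only where the limma test called it. For many genes the level on each array is given so that the pairs can be compared directly. Where only an averaged change is given, the pairs can differ and cannot be compared from the text.

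**Figure D1:**
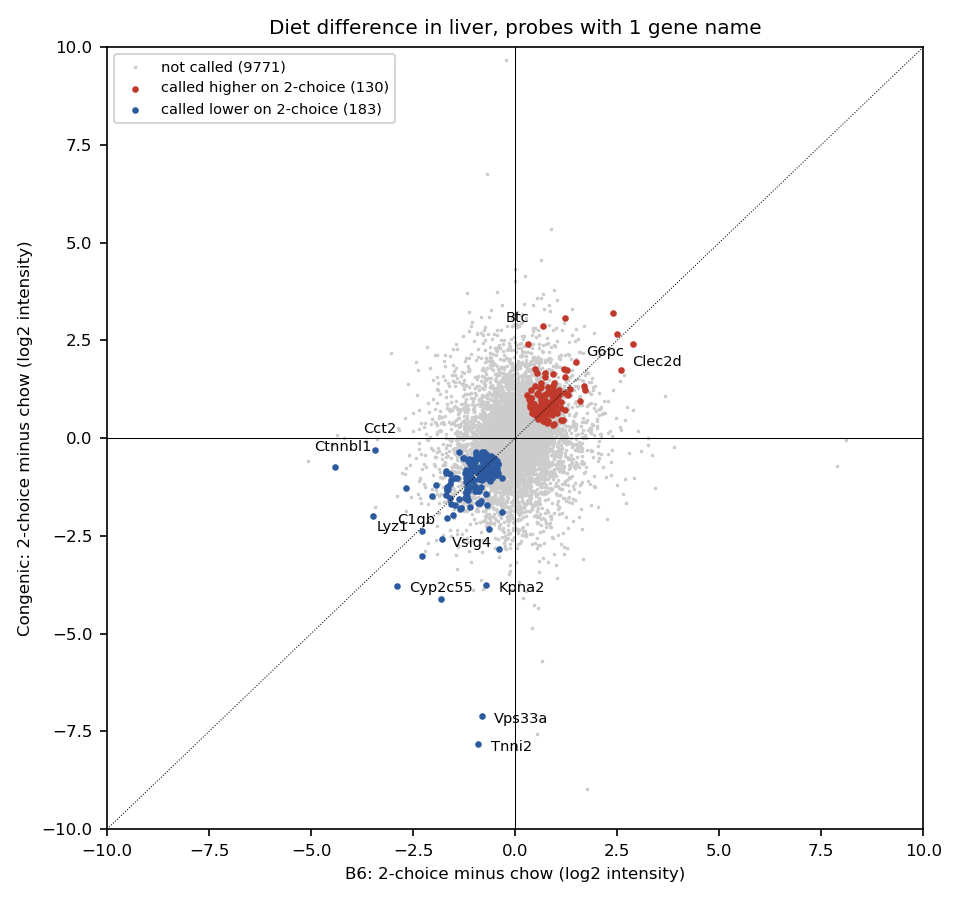
Each point is a tested probe with 1 gene name, with the log2 difference between 2-choice and chow in B6 on the x axis and in the congenic strain on the y axis; red and blue mark probes called higher and lower by limma, and the dotted line marks equal differences. Clec2d, G6pc, Cyp2c55, Lyz1, Vsig4 and C1qb lie near the dotted line, whereas Vps33a, Tnni2, Kpna2, Ctnnbl1 and Cct2 lie far from it because 1 strain carries most of their difference.

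Genes for making fatty acids rose in both strains. Of 19 genes of fatty acid and triglyceride synthesis tested, 8 rose (1.72% of all probes did) and none fell. For 14, both 2-choice arrays lay above both chow arrays (19.6% of all probes tested). The median difference was 0.59 against -0.01 over all probes. Fasn, fatty acid synthase, the enzyme that builds palmitate, read 15.94 and 16.08 on chow and 16.86 and 17.71 on 2-choice, a 2.42-fold rise (log2 difference 1.27, SE 0.16, adjusted p = 0.000243). Acly, ATP citrate lyase, which supplies cytosolic acetyl-CoA, read 13.19 and 13.66 on chow and 13.73 and 15.32 on 2-choice (log2 difference 1.10, SE 0.22, adjusted p = 0.00877). Both genes rose in each strain, with the congenic 2-choice pool the highest of the 4.

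Thrsp, the nuclear protein Spot 14 that tracks lipogenic state, went from 18.56 and 18.68 to 19.49 and 20.08, a 2.25-fold rise (log2 difference 1.17, SE 0.18, adjusted p = 0.00188). 2 elongases and 1 desaturase rose with it. Elovl6, which lengthens palmitate, read 15.96 and 15.93 on chow and 16.34 and 17.15 on 2-choice (log2 difference 0.80, SE 0.17, adjusted p = 0.0151). Elovl5, an elongase of polyunsaturated fatty acids, read 16.88 and 16.45 and then 17.42 and 17.60 (log2 difference 0.84, SE 0.16, adjusted p = 0.00653). Fads2, the delta-6 desaturase, rose by almost the same amount in both strains, from 15.67 and 15.89 to 16.52 and 16.80 (log2 difference 0.88, SE 0.13, adjusted p = 0.00137). The transcription factor genes of this pathway had the smallest differences of the 8, a ranking that was not tested. Srebf1, which encodes SREBP1, read 17.74 and 17.44 on chow and 18.35 and 18.11 on 2-choice (log2 difference 0.63, SE 0.15, adjusted p = 0.0257), and Mlxipl, which encodes ChREBP, read 15.96 and 16.63 and then 16.75 and 17.01 (log2 difference 0.59, SE 0.14, adjusted p = 0.0338).

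Other lipogenic genes were not called. Scd1, the stearoyl-CoA desaturase, read 17.49 and 17.55 on chow but 16.13 and 17.87 on 2-choice, a fall of 1.36 in B6 and a gain of 0.32 in the congenic strain, and was not called (adjusted p = 0.328). Me1, malic enzyme, which makes NADPH, read 15.31 and 14.98 and then 15.42 and 16.05, and Fads1, the delta-5 desaturase, 19.31 and 19.64 and then 20.00 and 19.96. In both genes the 2-choice arrays lay above the chow arrays, yet neither passed the test (adjusted p = 0.0992 and 0.204).

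**Figure D2:**
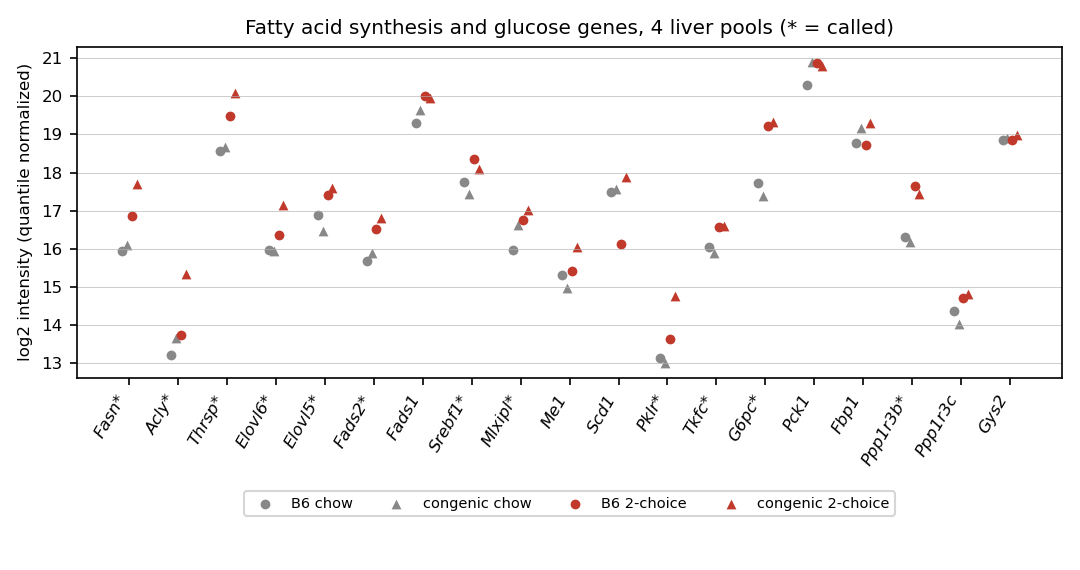
Log2 intensity of 19 genes of fatty acid synthesis, glycolysis, glucose output and glycogen on each of the 4 liver arrays (grey, chow; red, 2-choice; circle, B6; triangle, congenic; an asterisk marks genes called by limma). G6pc shows the widest gap between red and grey, and the red symbols of Scd1 lie 1.75 apart, 1 under and 1 above the grey.

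Glucose genes changed at a few points rather than as a pathway. G6pc, the catalytic subunit of glucose-6-phosphatase and the last step of glucose release, read 17.73 and 17.39 on chow and 19.22 and 19.33 on 2-choice, a 3.28-fold rise (log2 difference 1.71, SE 0.17, adjusted p = 3.75e-05). It was the single gene called among 9 tested for glucose output (1.72% of all probes rose), a count not read as a result about the list. Pck1, which encodes cytosolic PEPCK, read 20.31 and 20.91 and then 20.88 and 20.80, and Fbp1, fructose-1,6-bisphosphatase, 18.78 and 19.18 and then 18.71 and 19.30. Each of these 2 genes went opposite ways in the 2 strains, and neither was called (adjusted p = 0.727 and 0.967).

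Among 9 genes of glycolysis and fructose use, 2 rose (1.72% of all probes did). Pklr, liver pyruvate kinase, a ChREBP target, read 13.13 and 13.00 on chow and 13.62 and 14.76 on 2-choice (log2 difference 1.12, SE 0.24, adjusted p = 0.0142), a rise that was larger in the congenic pool. Tkfc, triokinase, which phosphorylates glyceraldehyde from fructose, rose from 16.04 and 15.88 to 16.56 and 16.61 (log2 difference 0.62, SE 0.14, adjusted p = 0.0185). Ppp1r3b, the liver subunit that directs protein phosphatase 1 to glycogen, was the gene called among 9 of glycogen metabolism (1.72% of all probes rose). Its brighter probe read 16.30 and 16.19 on chow and 17.65 and 17.43 on 2-choice, a 2.46-fold rise (log2 difference 1.30, SE 0.14, adjusted p = 7.72e-05), while a dimmer probe differed by 0.27 and was not called. Gys2, liver glycogen synthase, read 18.85 and 18.91 on chow and 18.86 and 19.00 on 2-choice (adjusted p = 0.938).

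The 11 called genes of fatty acid synthesis, glucose and fructose handling had 15 promoters in the RefSeq table of assembly GRCm38.p6, each from 250 bases before to 50 bases after a start. Those of Fasn, Thrsp, Elovl5 and G6pc are shown because these genes carry the changes described above and differ in the motifs they hold. Capitals mark the E-box CACGTG, which ChREBP and SREBP1 can bind, and the CCAAT box, CCAAT or its reverse ATTGG, the NF-Y site. Both strands were searched. Other motifs of these factors were not searched for, so a promoter without an E-box here may still hold sites of them. Fasn lies at chr11:120824498-120824797 on the minus strand, Thrsp at chr7:97417501-97417800 on the minus strand, Elovl5 at chr9:77917115-77917414 on the plus strand and G6pc at chr11:101367466-101367765 on the plus strand.
Fasn: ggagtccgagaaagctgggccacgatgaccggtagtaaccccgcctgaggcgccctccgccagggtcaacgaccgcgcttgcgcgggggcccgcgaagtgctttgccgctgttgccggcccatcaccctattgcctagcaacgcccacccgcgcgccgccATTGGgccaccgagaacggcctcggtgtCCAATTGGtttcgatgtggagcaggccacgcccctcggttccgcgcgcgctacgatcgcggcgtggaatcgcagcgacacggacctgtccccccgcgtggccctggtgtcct
Thrsp: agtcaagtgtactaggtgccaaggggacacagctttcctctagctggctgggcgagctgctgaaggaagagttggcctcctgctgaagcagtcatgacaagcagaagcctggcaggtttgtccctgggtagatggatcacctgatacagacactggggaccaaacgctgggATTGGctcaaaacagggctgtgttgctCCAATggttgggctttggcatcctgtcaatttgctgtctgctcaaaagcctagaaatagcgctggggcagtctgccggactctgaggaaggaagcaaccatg
Elovl5: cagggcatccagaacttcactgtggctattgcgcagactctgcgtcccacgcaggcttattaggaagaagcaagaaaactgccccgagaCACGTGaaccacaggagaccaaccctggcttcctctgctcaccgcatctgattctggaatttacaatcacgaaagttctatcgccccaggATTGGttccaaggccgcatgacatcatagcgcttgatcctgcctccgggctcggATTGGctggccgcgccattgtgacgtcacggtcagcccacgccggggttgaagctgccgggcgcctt
G6pc: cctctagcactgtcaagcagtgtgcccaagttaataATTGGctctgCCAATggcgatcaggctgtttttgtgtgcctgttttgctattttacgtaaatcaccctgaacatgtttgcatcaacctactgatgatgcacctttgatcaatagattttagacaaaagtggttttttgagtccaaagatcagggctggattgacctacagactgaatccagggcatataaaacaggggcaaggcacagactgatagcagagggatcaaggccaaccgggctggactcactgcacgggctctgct
The Fasn promoter held 3 CCAAT matches, beginning at -90, -62 and -59 from the start, the last 2 of them overlapping on opposite strands. Thrsp held 2, at -79 and -52, G6pc 2, at -214 and -204, and Elovl5 2, at -71 and -17, beside an E-box at -161. A CCAAT match was present in 10 of the 15 promoters, against 37.4% of all 32851 promoters in the table. The E-box was present in 2 of 15, those of Elovl5 and Mlxipl, against 7.15% of the table. These matches are letters in a window of 300 bases and say nothing about binding.

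Genes for burning fat gave no call. None of the 27 tested genes of fatty acid oxidation and PPAR alpha targets was called in either direction, and their median difference was 0.07. The nearest to the threshold was Ppara itself, the receptor gene, at 17.22 and 17.01 on chow and 17.71 and 17.60 on 2-choice (log2 difference 0.53, adjusted p = 0.0503). Cpt1a, the entry step of mitochondrial oxidation, read 12.34 and 11.78 and then 11.14 and 11.78, a fall in B6 alone (adjusted p = 0.447). Cyp4a14, a PPAR alpha target, read 16.71 and 16.22 and then 17.48 and 15.55, up in B6 and down in the congenic strain. Pdk4, which restrains pyruvate oxidation, was dim and uneven at 10.80 and 8.26 and 11.20 and 10.57.

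Sterol genes changed in part. Of 15 cholesterol synthesis and SREBP2 target genes, 2 rose (1.72% of all probes did) and 1 fell (1.51%), with a median of 0.07. Insig1, which holds SREBP precursors in the endoplasmic reticulum, rose from 16.48 and 16.17 to 17.06 and 16.79 (log2 difference 0.60, SE 0.13, adjusted p = 0.0199). Sc5d, the sterol C5-desaturase, rose from 17.35 and 17.51 to 17.97 and 18.09 (adjusted p = 0.032), and Ebp, the sterol isomerase 1 step earlier, fell from 17.39 and 17.69 to 16.61 and 17.07 (adjusted p = 0.0108). Hmgcs1, a standard SREBP2 target, read 16.94 and 17.27 on chow and 17.03 and 17.31 on 2-choice and was not called. Insig2, an insulin-repressed relative of Insig1 added here after its values were seen, read 14.91 and 14.63 on chow and 15.78 and 15.24 on 2-choice by its brighter probe (adjusted p = 0.00796), while its dimmer probe differed by 0.32 and was not called.

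Bile acid genes gave no call among the 20 tested, each read by its brightest probe. The probes of Cyp7a1, the rate-limiting enzyme of bile acid synthesis, disagreed: the brighter read 14.60 and 14.35 on chow and 14.69 and 13.99 on 2-choice (adjusted p = 0.744), and the dimmer fell from 14.10 and 14.21 to 13.31 and 13.27 (adjusted p = 0.00976). Cyp8b1, which sets the share of cholic acid, read 19.03 and 18.56 and then 18.63 and 18.06, and Abcb11, the bile salt export pump, 16.76 and 16.65 and then 16.07 and 16.49. Both were lower on 2-choice in each strain without passing the test (adjusted p = 0.156 and 0.152).

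Apoa4, an apolipoprotein of intestine and fat-loaded liver, read 14.16 and 14.13 on chow and 15.39 and 15.70 on 2-choice, a 2.63-fold rise (log2 difference 1.40, SE 0.15, adjusted p = 8.56e-05), whereas Apom, the sphingosine-1-phosphate carrier, fell from 16.62 and 15.02 to 16.02 and 14.48 with strain levels further apart than the diets (adjusted p = 0.0305). Fabp2, a fatty acid-binding protein best known from the intestine, read 15.34 and 15.44 on chow and 17.02 and 16.77 on 2-choice, a 2.83-fold rise (adjusted p = 3.22e-05). Apoa4 and Fabp2 separated the diets with no overlap and by similar steps in both strains. The call itself selects for this, and 606 of the 639 calls had no overlap, so it is no separate support.

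Genes for amino acid breakdown fell where they changed. Among 27 tested genes of amino acid breakdown and the urea cycle, 4 fell (1.51% of all probes did) and none rose. The median was -0.07. Oat, ornithine aminotransferase, a pericentral enzyme that turns ornithine toward glutamate, read 18.08 and 18.16 on chow and 16.87 and 17.04 on 2-choice, 2.25-fold lower (log2 difference -1.17, SE 0.14, adjusted p = 0.0002). Got1, the cytosolic aspartate aminotransferase, read 17.09 and 17.76 and then 16.56 and 17.11 (adjusted p = 0.0267), with the congenic 2-choice pool just above the B6 chow pool. Otc, the urea cycle enzyme, and Hal, histidase, fell by 0.55 and 0.52 (adjusted p = 0.045 and 0.0435). Ass1 and Arg1, which are further urea cycle enzymes, were read at 20.08 and 20.39 and 19.09 and 19.31 on 2-choice against 20.42 and 20.54 and 19.12 and 19.33 on chow and were not called.

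Sulfur amino acid genes fell as well. Of 11 tested genes of the methionine cycle and transsulfuration, 3 fell (1.51% of all probes did) and none rose. All 3 act after homocysteine. Cth, cystathionine gamma-lyase, which makes cysteine, read 17.14 and 17.57 on chow and 16.21 and 16.77 on 2-choice, 1.83-fold lower (log2 difference -0.87, SE 0.14, adjusted p = 0.00195). Cdo1, cysteine dioxygenase, fell from 17.96 and 17.79 to 17.15 and 17.16 (log2 difference -0.71, SE 0.14, adjusted p = 0.0109). Csad, which decarboxylates cysteine sulfinate toward taurine, fell from 16.64 and 16.87 to 15.68 and 15.57 (log2 difference -1.12, SE 0.14, adjusted p = 0.000223), and its other probe fell by 1.28 (adjusted p = 0.000282). Cbs, the step before Cth, read 18.35 and 19.33 and then 17.95 and 18.78, lower in each strain but not called, and Bhmt, which remethylates homocysteine, read 20.00 and 19.95 and then 20.28 and 20.31, higher in each strain but not called. Ethe1, which oxidises persulfide, was picked after its values were seen: it fell from 15.52 and 15.52 to 14.05 and 14.49 (adjusted p = 0.0002). Gss, glutathione synthetase, which uses cysteine, fell from 14.91 and 15.23 to 14.21 and 14.20 (log2 difference -0.87, SE 0.15, adjusted p = 0.00425).

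Drug metabolism genes fell in both strains. Of 26 tested cytochrome P450 genes of drug metabolism and their receptors, 8 fell (1.51% of all probes did) and none rose. 10 had both 2-choice arrays below both chow arrays (21.6% of all probes tested did), although the median over the list was only -0.18. Cyp2c55 changed most: it read 13.73 and 14.53 on chow and 10.83 and 10.76 on 2-choice, 10.1-fold lower (log2 difference -3.34, SE 0.27, adjusted p = 2.25e-05). Both 2-choice pools lay over 2 log2 units under both chow pools. Cyp2c29 fell from 20.17 and 20.25 to 18.48 and 18.95, 2.81-fold (log2 difference -1.49, SE 0.19, adjusted p = 0.000243), and Cyp2c54 from 19.00 and 18.71 to 17.58 and 17.70 (log2 difference -1.21, SE 0.16, adjusted p = 0.000374). Cyp2c37 fell from 16.34 and 15.98 to 15.36 and 15.35 (log2 difference -0.80, SE 0.14, adjusted p = 0.00447). Nr1i3, which encodes the receptor CAR, fell from 15.72 and 15.83 to 15.27 and 15.03 (log2 difference -0.63, SE 0.14, adjusted p = 0.0225).

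The fall was not shared by all P450 genes. Cyp2e1, the ethanol-metabolising enzyme, read 21.01 and 20.92 on chow and 21.16 and 21.07 on 2-choice, and Cyp1a2 19.86 and 19.56 and then 19.65 and 19.50; neither was called. Cyp2b10, the classic CAR target, read 12.79 and 11.52 on chow and 12.80 and 11.57 on 2-choice, differences of 0.01 and 0.05 in the 2 strains. Cyp2b9, a female-biased relative, read 9.90 and 12.62 and then 8.72 and 10.07, and Cyp1a1, the classic target of the aryl hydrocarbon receptor, 9.04 and 7.88 and then 10.52 and 9.89. Both had the same direction in each strain, down and up in turn, at dim levels that did not pass the test (adjusted p = 0.109 and 0.203).

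The Cyp3a and Cyp2a members that fell are, as background, more abundant in female than in male mouse liver. Cyp3a41a read 18.82 and 18.78 on chow and 17.26 and 17.10 on 2-choice, 3.09-fold lower (log2 difference -1.63, SE 0.15, adjusted p = 3.22e-05). Cyp3a16 fell from 20.97 and 20.77 to 19.81 and 19.54 (log2 difference -1.19, SE 0.21, adjusted p = 0.00453), Cyp3a44 from 20.93 and 20.71 to 19.83 and 19.45 (adjusted p = 0.00466) and Cyp2a4 from 20.25 and 20.35 to 19.34 and 19.46 (adjusted p = 0.0166). These 4 were the genes called among 10 tested female-biased genes, while 1.51% of all probes were called lower. They belong to families of near-identical copies, and the specificity of their probes was not checked. The 2 probes of Cyp3a25, a further member, disagreed: the dimmer fell by 0.67 (adjusted p = 0.0264), and the brighter differed by 0.07 (adjusted p = 0.881). Of 9 male-biased genes, C6, a complement component, rose from 16.41 and 15.93 to 17.05 and 17.33 (log2 difference 1.02, SE 0.17, adjusted p = 0.0024) and none fell. Over all probes tested, 1.72% rose.

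Conjugating and other drug enzymes fell in part, mostly glutathione S-transferases. No tested glucuronosyltransferase (Ugt2) or sulfotransferase (Sult1) gene was called, nor were Gsta3, Gsta4, Gstp1 and Gstk1. Ugt2b5 and Fmo1 were the 2 genes higher in both strains, against 19 lower in both. Of 27 tested, 8 fell (1.51% of all probes did) and none rose, 15 had both 2-choice arrays below both chow arrays (21.6% of all probes), and the median was -0.35. Among glutathione S-transferases, 3 of 5 tested genes of the mu class and 3 of 3 of the theta class fell. In the mu class, Gstm6 fell from 15.49 and 15.33 to 13.90 and 14.40 (log2 difference -1.26, SE 0.17, adjusted p = 0.000374). Gstm4 fell from 14.81 and 14.70 to 13.60 and 13.67 (log2 difference -1.12, SE 0.16, adjusted p = 0.000672), and Gstm2 from 16.67 and 16.57 to 15.45 and 15.69 (log2 difference -1.05, SE 0.14, adjusted p = 0.000376). Gstm1 read 11.36 and 11.14 and then 9.60 and 8.66, a wider gap at a dim level that did not pass the test (adjusted p = 0.0642), and Gstm5 differed by -0.20 (adjusted p = 0.735). In the theta class the falls were 0.82 for Gstt2, 0.56 for Gstt3 and 0.56 for Gstt1. Ephx1, microsomal epoxide hydrolase, fell from 17.17 and 17.22 to 16.37 and 16.14 (log2 difference -0.95, SE 0.14, adjusted p = 0.00106), and Mgst3 from 13.21 and 13.60 to 12.46 and 12.61 (adjusted p = 0.0301). With no filter on low probes, the count of conjugation genes called lower was 5.

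Among 9 tested NRF2 targets and glutathione genes, Gss and Hmox1, heme oxygenase 1, fell (1.51% of all probes did) and none rose. Hmox1 read 13.43 and 13.58 and then 12.72 and 12.76 (adjusted p = 0.0456). Several further genes that handle foreign compounds were picked from the called genes after their values were seen. Alas1, the first step of heme synthesis and a CAR target, fell from 19.09 and 19.03 to 17.49 and 17.86 (adjusted p = 0.000189). Slco1a4, an organic anion transporter, fell from 15.76 and 16.17 to 14.59 on both 2-choice arrays (adjusted p = 8.71e-05). Ugdh, which makes UDP-glucuronate, Nqo2, Cbr1, Ces2a and Aldh1a7 fell by 0.89, 0.98, 0.82, 0.80 and 0.65 in turn. The summed linear intensity of 9 hepatocyte markers was 13208000 and 15281000 on chow and 11316000 and 13819000 on 2-choice, with a median log2 difference of -0.05 and no marker called. Its part in the falls of hepatocyte genes was not tested.

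**Figure D3:**
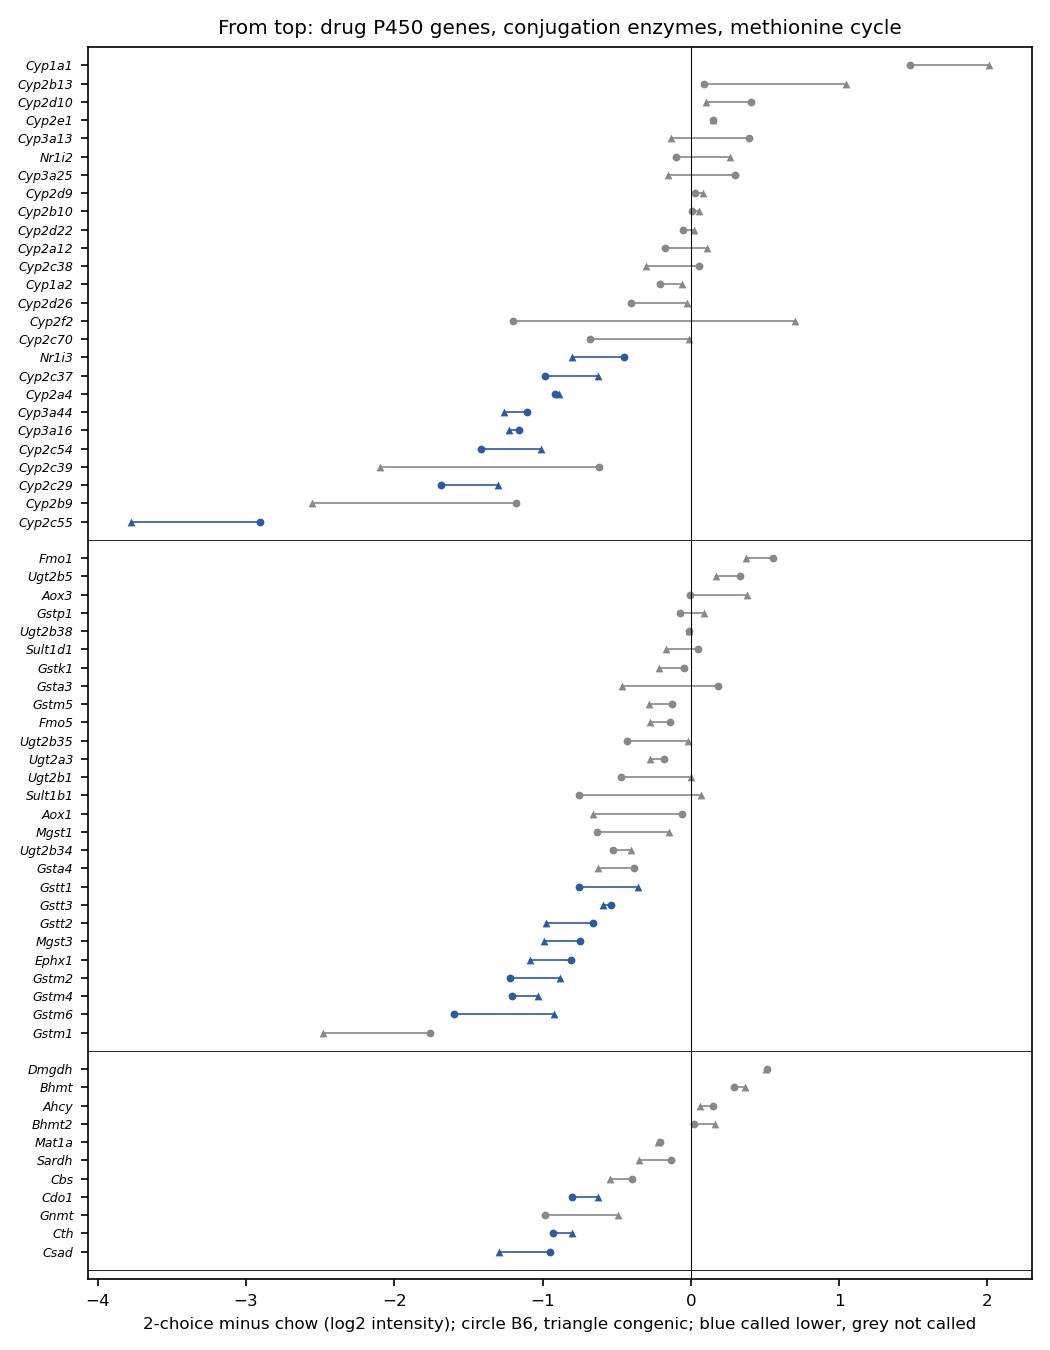
For every tested gene of 3 lists, drug P450 genes, conjugating enzymes and the methionine cycle with transsulfuration, the log2 difference between 2-choice and chow is drawn for B6 (circle) and the congenic strain (triangle), joined by a line; blue genes were called lower by limma and grey ones were not called. The blue pairs sit left of 0 in both strains, Cyp2c55 farthest at -2.90 and -3.78, while Cyp2e1, Cyp2b10 and Cyp1a2 lie close to 0.

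Macrophage genes fell together. Of 14 Kupffer cell and macrophage markers listed, 12 had a probe and all 12 passed the filter; 9 fell (1.51% of all probes did) and none rose, and the median difference was -1.29. Both 2-choice arrays lay below both chow arrays for 10 of the 12 (21.6% of all probes). The same number, 9, was called on values as deposited, after median centring and after cyclic loess. Their summed linear intensity was 323310 and 342130 on chow and 150350 and 117930 on 2-choice. In RNA from whole liver, fewer cells of a type and less RNA per cell cannot be told apart.

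Vsig4, the complement receptor of resident macrophages, read 13.69 and 13.57 on chow and 11.89 and 10.99 on 2-choice, 4.57-fold lower (log2 difference -2.19, SE 0.26, adjusted p = 0.000163). Clec4f, a lectin of mouse Kupffer cells, fell from 15.06 and 15.36 to 13.87 and 13.88 (log2 difference -1.33, SE 0.15, adjusted p = 0.000131). Timd4, a receptor for dying cells that marks long-lived Kupffer cells, fell from 13.20 and 13.05 to 12.34 and 12.04 (log2 difference -0.94, SE 0.23, adjusted p = 0.0338). The 3 chains of complement C1q fell by different amounts. C1qb, with the widest gap, fell from 14.45 and 14.63 to 12.78 and 12.58, 3.63-fold (log2 difference -1.86, SE 0.18, adjusted p = 3.75e-05), C1qa from 15.90 and 15.98 to 15.01 and 14.62 and C1qc from 14.72 and 14.45 to 13.72 and 13.37 (adjusted p = 0.000369 and 0.00154). Cd5l, a secreted macrophage protein, fell from 16.23 and 16.07 to 14.84 and 14.52 (log2 difference -1.47, SE 0.14, adjusted p = 3.22e-05). Folr2, a folate receptor, and Lyz2, macrophage lysozyme, fell by 1.38 and 1.22.

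Marco and Adgre1, further macrophage genes, were dim and split: Marco read 9.17 and 12.42 on chow and 9.76 and 8.99 on 2-choice, and Adgre1 9.44 and 11.89 and then 9.58 and 9.24, each high on the congenic chow array alone. Msr1, a scavenger receptor, was lower by 0.78 in both strains and not called (adjusted p = 0.444). Lyz1, a close copy of Lyz2 (probe specificity not checked), fell from 13.34 and 13.56 to 11.06 and 11.18, 5.03-fold (log2 difference -2.33, SE 0.26, adjusted p = 0.000105). Among genes picked after their values were seen, Ctss, the lysosomal protease cathepsin S, fell from 15.13 and 15.04 to 13.80 and 13.26, Fcna, a ficolin of macrophages, from 14.92 and 14.80 to 13.71 and 13.40, and Fcgr4, an antibody receptor, from 12.61 and 12.40 to 11.29 and 10.62 (adjusted p = 7.72e-05, 0.000194 and 0.0156). Ccl6, a macrophage chemokine, fell from 13.42 and 13.25 to 11.94 and 11.52 (log2 difference -1.60, SE 0.24, adjusted p = 0.00122). Cybb, the phagocyte NADPH oxidase subunit, lay above the filter level of 9.04 on chow, at 10.95 and 11.46, and under it on 2-choice, at 8.65 and 8.45. It passed the filter on mean level through the chow arrays alone, so its call adds no support to the macrophage falls.

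MHC class II genes fell too. Of 8 tested, 3 fell (1.51% of all probes did) and none rose, and the median was -1.19. Cd74, the invariant chain, read 15.02 and 14.56 on chow and 13.81 and 13.20 on 2-choice, 2.45-fold lower (log2 difference -1.29, SE 0.16, adjusted p = 0.0002). H2-Ab1 fell from 13.42 and 12.91 to 12.31 and 11.13 (log2 difference -1.45, SE 0.26, adjusted p = 0.00503), and H2-Eb1 from 14.82 and 14.51 to 14.11 and 13.58 (log2 difference -0.82, SE 0.16, adjusted p = 0.00745). H2-Aa read 12.58 and 10.79 and then 10.97 and 9.20, lower by 1.62 and 1.60 in the 2 strains but not called (adjusted p = 0.0727). The H2 genes lie on chromosome 17, and H2-Ea, silent in B6, read above the filter level in the congenic pools alone, as given above. Whether the other H2 genes fall inside the CAST stretch, or whether CAST alleles change probe binding, was not tested. Each strain was compared with itself. Macrophage markers moved with these genes, as given above, and their part was not tested. Of the antigen-presenting cells' other markers, the 2 tested dendritic cell and 2 tested B cell genes gave no call.

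Sinusoidal endothelial genes fell in part. Of 12 markers with a probe, 10 passed the filter and 4 fell (1.51% of all probes did), 7 had both 2-choice arrays below both chow arrays (21.6% of all probes), and the median was -0.76. Fcgr2b, the antibody receptor of sinusoidal endothelium, which macrophages and B cells also express, fell from 13.90 and 14.09 to 12.22 and 12.64, 2.97-fold (log2 difference -1.57, SE 0.20, adjusted p = 0.000214). Clec4g, a sinusoidal lectin, fell from 13.69 and 13.95 to 12.56 and 12.96 (log2 difference -1.06, SE 0.19, adjusted p = 0.00516), Eng, endoglin, from 14.57 and 14.55 to 13.53 and 13.91 (adjusted p = 0.00949) and Oit3 from 15.03 and 15.20 to 14.16 and 14.71 (adjusted p = 0.0201). Stab2, the hyaluronan scavenger receptor, read 14.64 and 14.41 and then 14.04 and 14.02, lower in each strain but not called. Kdr, the VEGF receptor, read 14.71 and 14.41 and then 14.69 and 14.54, and overlapped between diets. Gpr182, Plvap and the factor VIII gene F8, named after their values were seen, fell by 1.57, 1.02 and 1.29 (adjusted p = 0.00579, 0.00669 and 0.0296). F8 differed by -1.69 in B6 and -0.89 in the congenic strain. The summed intensity of all 12 endothelial markers with a probe was 151530 and 160730 on chow and 97317 and 110790 on 2-choice.

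Other cell types gave fewer or no calls. None of 8 tested stellate cell and fibroblast markers, 4 cholangiocyte markers, 3 T and NK cell markers or 5 neutrophil markers was called. The sum over the 10 stellate markers with a probe was 350770 and 352150 on chow against 295760 and 290680 on 2-choice. Sums in this paragraph include markers under the filter. Hba-a1, alpha globin of red cells, fell from 17.33 and 17.13 to 16.47 and 15.46 (log2 difference -1.27, SE 0.17, adjusted p = 0.000374), and the erythroid sum was 214240 and 195200 against 151780 and 101460. How much blood each pool held is not given in the sources used here. Tnni2, fast skeletal muscle troponin, read 9.19 and 16.61 on chow and 8.29 and 8.78 on 2-choice, with the congenic chow pool alone high. It passed the filter on mean level through that array alone, so its call says nothing about diet. The muscle sum there was 103520 against 4231.5 in B6 chow, and the muscle markers Ckm and Acta1 read 10.78 and 8.35 in that pool.

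**Figure D4:**
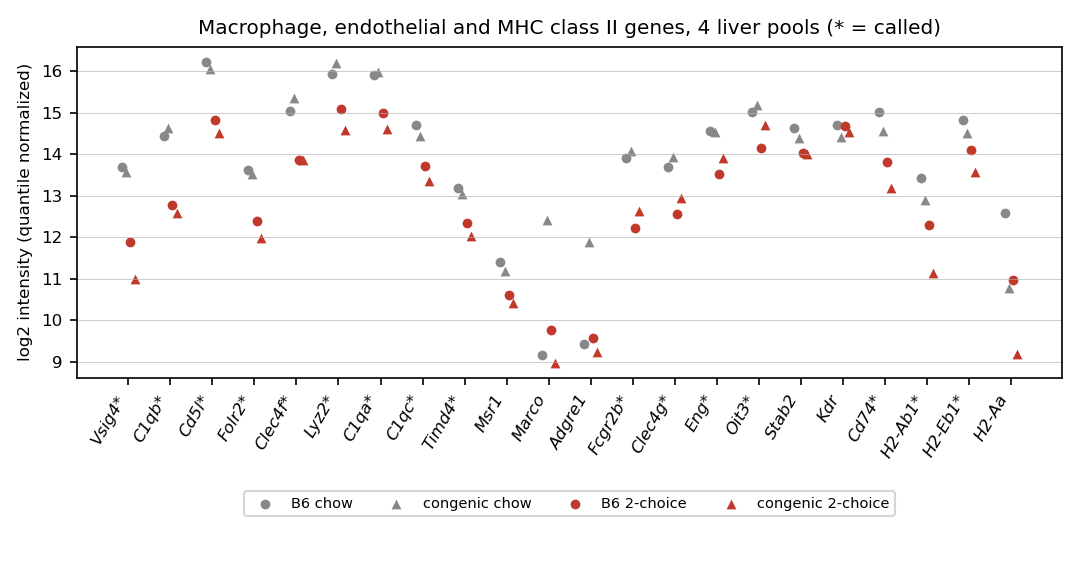
Log2 intensity of 22 macrophage, endothelial and MHC class II genes on each of the 4 liver arrays (grey, chow; red, 2-choice; circle, B6; triangle, congenic; an asterisk marks genes called by limma). For genes from Vsig4 to Timd4 both red symbols lie under both grey ones, while Marco and Adgre1 are high on the congenic chow array alone and Kdr overlaps.

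Hormone and stress genes changed singly. Over all probes tested, 1.72% rose and 1.51% fell. Of 15 genes of the insulin, IGF and growth hormone axis, 2 rose: Igfbp1, an insulin-repressed binding protein, from 17.49 and 18.13 to 18.36 and 18.99 (log2 difference 0.86, SE 0.15, adjusted p = 0.00477), and Igfbp4 from 16.91 and 16.71 to 17.33 and 17.36 (adjusted p = 0.0486). Igfbp1 rose by 0.86 in each strain. Of 16 immediate early and stress genes, Gadd45g rose from 15.36 and 14.80 to 16.28 and 15.98 (log2 difference 1.05, SE 0.14, adjusted p = 0.000374) and Klf10 from 13.68 and 14.02 to 14.39 and 15.13 (log2 difference 0.91, SE 0.16, adjusted p = 0.00464). In the endoplasmic reticulum stress list, Hspa5, the chaperone BiP, rose by 0.62 while Herpud1 and Sdf2l1 fell by 0.59 and 1.11, so its 15 tested members did not move one way. Sdf2l1 differed by -0.32 in B6 and -1.89 in the congenic strain. Cp, ceruloplasmin, was the gene called among 21 acute phase genes, from 16.10 and 15.55 to 17.03 and 16.87 (log2 difference 1.13, SE 0.14, adjusted p = 0.000243).

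A few proteasome, respiration and ribosome genes were called. Of 23 proteasome genes, 3 fell and none rose: Psmb5, a catalytic subunit, from 12.81 and 13.25 to 10.78 and 11.76 (log2 difference -1.76, SE 0.28, adjusted p = 0.00215), Psmd4, a ubiquitin receptor, by 0.93 and Psmb1 by 0.61. Both 2-choice arrays lay below both chow arrays for 12 of the 23 (21.6% of all probes), 14 were lower and 1 higher in both strains, and the median was -0.25; on values as deposited 6 were called. Of 42 oxidative phosphorylation genes, the complex I genes Ndufs4, Ndufa6 and Ndufs1 rose by 0.73, 0.62 and 0.55 and Cox7c fell by 0.57. The list median was -0.04. Over all probes tested, 1.72% rose and 1.51% fell, and 557 of the 6602 brightest were called. The calls of this list and of the ribosome list below are therefore not read as results about either list. Of 33 ribosomal protein genes, Rpl14 and Rpl9 fell by 1.11 and 0.68. A dimmer probe of Rpl14 went the other way, higher by 0.50 on 2-choice, and was not called. Interferon response (18 tested), heat shock (5) and ATF4 amino acid response genes (10) gave no call by the brightest probe of each gene. The probes of Cebpb, in the ATF4 list, disagreed. The brighter differed by 0.58 and was not called (adjusted p = 0.0735), and the dimmer fell by 0.68 (adjusted p = 0.0255).

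Clock genes were not called, and the daily time of the chow livers is not known here. Among 14 tested, Per2 read 9.39 and 10.34 on chow and 11.12 and 12.07 on 2-choice, higher by 1.73 in both strains (adjusted p = 0.0678). Arntl, which encodes BMAL1, read 8.93 and 8.52 and then 10.22 and 10.01 (adjusted p = 0.33), and Dbp, a clock output gene and the brightest of these, 17.99 and 18.21 and then 17.59 and 17.87 (adjusted p = 0.212). Arntl lay under the filter level on both chow arrays. How far time of day enters any diet difference was not tested.

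**Figure D5:**
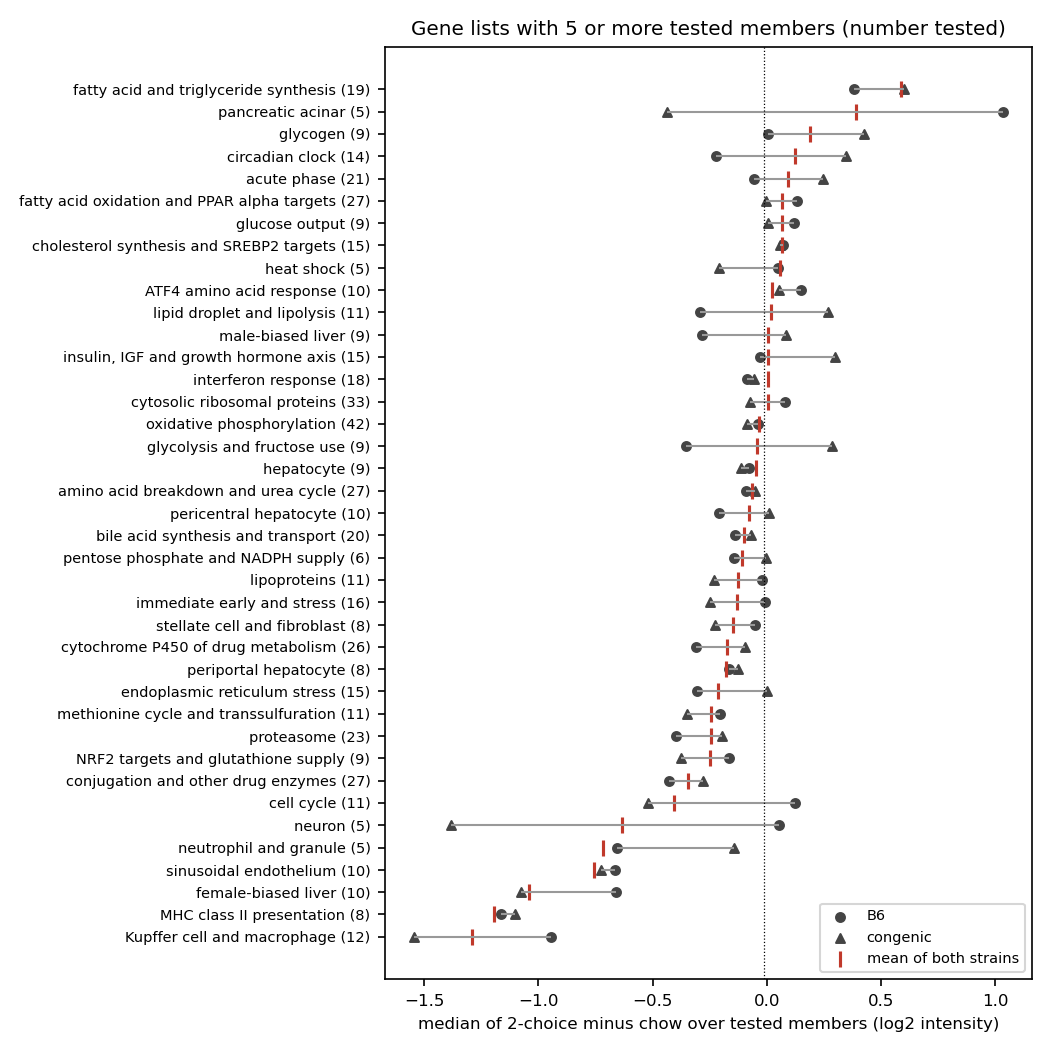
Median log2 difference between 2-choice and chow over the tested members of each gene list with 5 or more, in B6 (circle), in the congenic strain (triangle) and for the mean of both strains (red bar); the dotted line is the median of all probes tested, -0.01. Fatty acid synthesis lies to the right in both strains, and Kupffer cell, MHC class II, sinusoidal endothelium and conjugation lists to the left in both, while pancreatic, neuron and clock lists differ in sign between strains.

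By the ranking over all called named genes, the largest rise among genes at or above the filter level on all 4 arrays was that of Clec2d, a C-type lectin that is a ligand of an NK cell receptor. It read 12.49 and 13.38 on chow and 15.09 and 15.12 on 2-choice, 4.49-fold higher (log2 difference 2.17, SE 0.19, adjusted p = 3.22e-05). Eef1aknmt, a methyltransferase of elongation factor 1A, rose from 15.28 and 14.88 to 16.55 and 16.61 (log2 difference 1.51, SE 0.15, adjusted p = 3.75e-05). Aqp8, a water channel of hepatocytes, rose from 15.57 and 15.47 to 16.30 and 17.14 (log2 difference 1.20, SE 0.18, adjusted p = 0.0012). Dimmer genes of the same rank were Hdac4, a histone deacetylase, from 11.29 and 10.55 to 12.50 and 12.31, Tmie from 10.88 and 11.61 to 12.59 and 12.83, Cyp46a1, cholesterol 24-hydroxylase, from 11.29 and 11.53 to 12.58 and 12.62, and the Hippo kinase gene Stk4 from 12.29 and 12.08 to 13.51 and 13.22. Nhlh2, a transcription factor best known from neurons, rose in each strain from 12.29 and 10.58 to 13.88 and 11.52, with the strains further apart than the diets. In the other direction, Plpp1, a lipid phosphatase, fell from 12.87 and 13.61 to 11.53 and 11.79 (log2 difference -1.58, SE 0.25, adjusted p = 0.00207), and the uncharacterised gene 1700088E04Rik from 12.16 and 11.64 to 10.63 and 9.68 (adjusted p = 0.0388).

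Some of the largest averages rested mainly on 1 strain. Vps33a, an endosome tethering protein, read 11.55 and 17.47 on chow and 10.72 and 10.35 on 2-choice, a difference of -0.82 in B6 and -7.12 in the congenic strain. Ctnnbl1, a splicing-associated protein, read 16.33 and 12.50 and then 11.91 and 11.75, with B6 chow alone high. Cct2, a chaperonin subunit, read 17.38 and 17.59 and then 13.95 and 17.30, with B6 2-choice alone low. Each of these 3 was called, yet 3 of its arrays were close together and 1 stood apart. Kpna2, an importin, differed by -0.71 in B6 and -3.77 in the congenic strain, Cd52 by -0.40 and -2.84, and Fndc3a by -2.67 and -1.29. Btc, the EGF receptor ligand betacellulin, gained 0.67 and 2.87, and Pgm3, of hexosamine synthesis, 0.32 and 2.41. Of all 639 calls, 12 had differences over 3 log2 units apart between the strains.

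In 3 genes both chow arrays lay under the filter level and both 2-choice arrays at least 1 log2 unit above it. Dcc, the netrin receptor, read 8.45 and 8.98 and then 11.34 and 11.38. Plppr4, a brain lipid phosphatase-related protein, read 8.26 and 8.02 and then 10.66 and 11.21, and Chrna4, a nicotinic receptor subunit, 8.11 and 8.37 and then 10.61 and 11.04. They passed the filter on mean level only through the 2-choice arrays, so their calls add no support. All 3 genes are better known from brain, while the listed neuron markers gave no call and their summed intensity was 10543 and 9665.8 on chow and 10374 and 7842 on 2-choice.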

How the data were processed

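Total RNA pooled from 6 male mice per sample was transcribed into DIG-labelled cRNA for single-channel Applied Biosystems arrays, per the labels' protocols. The authors deposited linear probe intensity for 33012 probes, with background correction and normalization not given in the sources used here. The sorted deposited intensities of both strains agreed within 0.0984% on chow and 0.105% on 2-choice. Groups came from sample titles and characteristics. Intensities were taken to log2 and quantile normalized over the 4 liver arrays. Probes with a mean level at or above the 40th percentile (log2 9.04) were tested in limma 3.58.1 (R 4.3.3) with terms for strain and diet, eBayes with a trend, Benjamini-Hochberg adjustment and a threshold of 0.05. The fit had 1 residual and 15.0 prior degrees of freedom. The number of arrays limits the precision. The scripts were tested on simulated data. Symbols came from the platform annotation updated through RefSeq gene IDs: 14411 probes had 1 symbol, 247 several, and 18354 are unnamed here. A listed gene is read by its brightest probe. Scaling, filter, variance model, strain term and left-out arrays were varied.

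The gene lists and the genes to name were chosen with earlier results of these data known. The text names the 15 higher and 15 lower called genes with the largest differences among those at or above the filter level on all 4 arrays, up to 5 genes in each direction that lie under that level on both arrays of 1 diet only, a set of key genes, and members of the lists. Genes outside these rules are said to have been picked after their values were seen.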

Additional observations from a re-analysis of the deposited data

Results flagged for a closer look

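In 8 of the tested key genes the diet difference had opposite signs in the 2 strains, each of which is 1 pool per diet, so the difference between the strains was not tested. The values here are the congenic difference minus the B6 difference, on the log2 scale. For Scd1, the stearoyl-CoA desaturase, it was 1.68, the widest of the 8, with B6 2-choice at 16.13 against 17.49 on B6 chow. Cyp4a14, a PPAR alpha target, gave -1.45, rising by 0.77 in B6 and changing by -0.68 in the congenic strain. Saa2, an acute phase protein, gave 1.06, with the congenic 2-choice pool at 12.34 and the other 3 arrays between 11.34 and 11.79. Tat, tyrosine aminotransferase, gave -0.68 and Pck1, cytosolic PEPCK, -0.67. Nr1d1, which encodes REV-ERB alpha, gave 0.58, Cyp7a1 by its brighter probe -0.45 and Fbp1 0.19. None of these 8 genes was called for diet by limma by the probe used here.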

How the results depend on the processing

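The 639 calls (340 higher, 299 lower) became 761 (335 and 426) on values as deposited, 768 (332 and 436) after median centring and 713 (386 and 327) after cyclic loess, with 609, 606 and 637 of the 639 among them. No filter gave 471, the 60th percentile filter 791, and a robust trend 522. Calls fell to 0, in each direction and in all, without the trend, with the spread from all 8 arrays and without the strain term, where limma gave 1615, 1731 and 1901 probes at an unadjusted p under 0.05; the cause was not tested. Leaving out 1 array at a time gave 1 to 4 calls, 0 to 3 higher and 1 to 4 lower. Asking for at least 1.5-fold in each strain, a choice added after seeing the data, left 430. Probes at least 1.5-fold apart the same way in both strains numbered 2310, 3569 with no filter, 1257 with the 60th percentile filter and 725 at 2-fold; more and fewer probes enter the first 2 of these alternatives. Of 66 tested genes of the naming rules, none changed its side of the threshold under the 3 other scalings, and 43 called genes lost their call in each of the 3 settings without calls. Of 47 list medians, 40 kept their sign on deposited values, 40 after median centring and 46 after cyclic loess. Dim probes limit what can be seen: the median standard error was 0.69 over the 6603 dimmest probes tested and 0.17 over the 6602 brightest.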

Other observations

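Iron and heme genes were among the calls, and were picked after their values were seen. Hfe, a regulator of iron sensing, fell from 14.49 and 14.28 on chow to 13.60 and 13.43 on 2-choice (adjusted p = 0.0068), while Hjv, the hemojuvelin coreceptor of the same pathway, rose from 15.82 and 15.55 to 16.18 and 16.50 (adjusted p = 0.0265). In heme synthesis Urod fell from 14.95 and 15.17 to 14.27 and 14.21 (adjusted p = 0.0058), and Cpox, the next enzyme, rose from 14.79 and 14.28 to 15.51 and 14.99 (adjusted p = 0.00983). Alas1, the first enzyme, fell as described above, so called members of this route went both ways.

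Secreted liver proteins changed in both directions too, again picked after their values were seen. Agt, angiotensinogen, fell from 17.00 and 16.94 to 15.98 and 16.27 (adjusted p = 0.00292). Leap2, a peptide that opposes ghrelin at its receptor, rose from 13.90 and 14.33 to 14.85 and 14.99 (adjusted p = 0.00748). Serpina7, thyroxine-binding globulin, rose from 14.24 and 13.97 to 15.12 and 14.82 (adjusted p = 0.00383), and Fgl1 from 16.62 and 16.74 to 17.39 and 17.38 (adjusted p = 0.00964). All 4 separated the diets with no overlap between arrays, as did 606 of all 639 calls, so this is no separate support. Tsc22d3, a glucocorticoid-induced regulator that is not secreted, rose from 13.93 and 14.49 to 14.95 and 15.13 (adjusted p = 0.0067), whereas Dbi, the acyl-CoA-binding protein, fell from 15.20 and 15.41 to 14.29 and 14.06 (adjusted p = 0.000475) and Car3, carbonic anhydrase 3, from 19.28 and 19.11 to 18.20 and 18.27 (adjusted p = 0.00385).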
